A study of Bos taurus with 23 samples.

Results

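ALAS2 (ENSBTAG00000013178) and TFF2 (ENSBTAG00000030814) were followed across the peripheral white blood cells (PWBC) of 23 beef heifers. They were 2 of the 24616 genes in the count tables, and they were taken because an earlier look at these data found both highest in the same non-pregnant heifers of station B. The levels of station B therefore chose the genes and are described here with no test. Station A was not used for that choice, and tests were made there and between AI-pregnant heifers of the 2 stations, where the heifers of station B had a part in the choice.

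The animals were crossbred Angus-Simmental heifers whose estrus was synchronized with GnRH, a progesterone insert (CIDR) and prostaglandin before fixed-time artificial insemination (AI), and all were bled at the time of AI, so that the outcome of the breeding season was not yet known at sampling. In station A, 6 heifers conceived to AI (AI-pregnant) and 5 conceived later to a bull by natural breeding (NB-pregnant). In station B, 6 heifers were AI-pregnant and 6 did not conceive in the season (non-pregnant). Each heifer gave 1 stranded mRNA library, made from total RNA of the buffy coat after lysis of red blood cells, so heifers were the replicates, and no library pair matched closely enough to be a repeat of the same library.

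ALAS2 encodes the erythroid form of 5-aminolevulinate synthase, the mitochondrial enzyme that joins glycine and succinyl-CoA in the opening, rate-limiting step of heme synthesis. It is X-linked, its messenger RNA is abundant in maturing red cells, and its translation is held back by iron regulatory proteins when iron is scarce. The other form, ALAS1, serves heme synthesis in most other tissues. TFF2 encodes a small secreted trefoil peptide with a pair of trefoil domains, best known from the mucous cells of the stomach, where it takes part in the protection and repair of the mucosa. Mature red cells of mammals lack a nucleus, and PWBC are mostly lymphocytes, granulocytes and monocytes. In bulk samples such as these, fewer cells of a type and less RNA per cell cannot be told apart.

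Libraries of station A held 4826003 to 20053283 counts each, and those of station B held 5577129 to 20434401. Levels are given in CPM, the counts of a gene scaled to the same total of counts in every library (counts per 1000000), where 1 count was worth less CPM in a deeper library. LYZ, which encodes the lysozyme of myeloid cells, was high in every library, between 684 and 1671 CPM at station A and between 455 and 2146 CPM at station B. Libraries were not alike within a station. In station A, the 100 most abundant genes took 24.1% to 29.4% of counts in SL220767, SL220771, SL220772, SL220773 and SL220774, against 13.1% to 18.4% in the other 6. In station B, SL253804, SL253808 and SL253811 stood apart, with 12166 to 12394 genes over 1 CPM against 9970 to 10905 in the other 9 libraries and 11482 to 12456 in station A. Results that rest on these libraries are given with and without them.

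In PWBC of station A, ALAS2 was detected in every heifer, with a wide spread between heifers. Among AI-pregnant heifers it had 14.7 CPM in SL220764, 19.6 in SL220775, 46.7 in SL220766, 80.9 in SL220771, 81.9 in SL220772 and 102 in SL220765, a mean of 57.7 CPM ± 36.1 (SD, n = 6). NB-pregnant heifers had 17.9 CPM in SL220767, 31.6 in SL220769, 81.8 in SL220768, 91.8 in SL220774 and 142 in SL220773, a mean of 73.0 CPM ± 49.9 (SD, n = 5). Both groups held low and high heifers, and their ranges overlapped over most of their length. The count behind the lowest level was 231 read pairs, with a 95% Clopper-Pearson interval of 12.8 to 16.7 CPM, so counting error was small beside the 9.68-fold range between heifers. Such intervals cover counting error only.

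TFF2 varied even more between the same heifers. In AI-pregnant heifers of station A its level was 3.94 CPM in SL220764, 9.76 in SL220775, 43.6 in SL220765, 64.4 in SL220772, 67.9 in SL220771 and 116 in SL220766, a mean of 50.9 CPM ± 41.6 (SD, n = 6). In NB-pregnant heifers it was 6.63 CPM in SL220774, 9.84 in SL220767, 41.6 in SL220773, 44.1 in SL220769 and 152 in SL220768, a mean of 50.8 CPM ± 59.0 (SD, n = 5). The heifers again mixed, with low and high values in each group and a 38.5-fold range over the station.

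**Figure D1:**
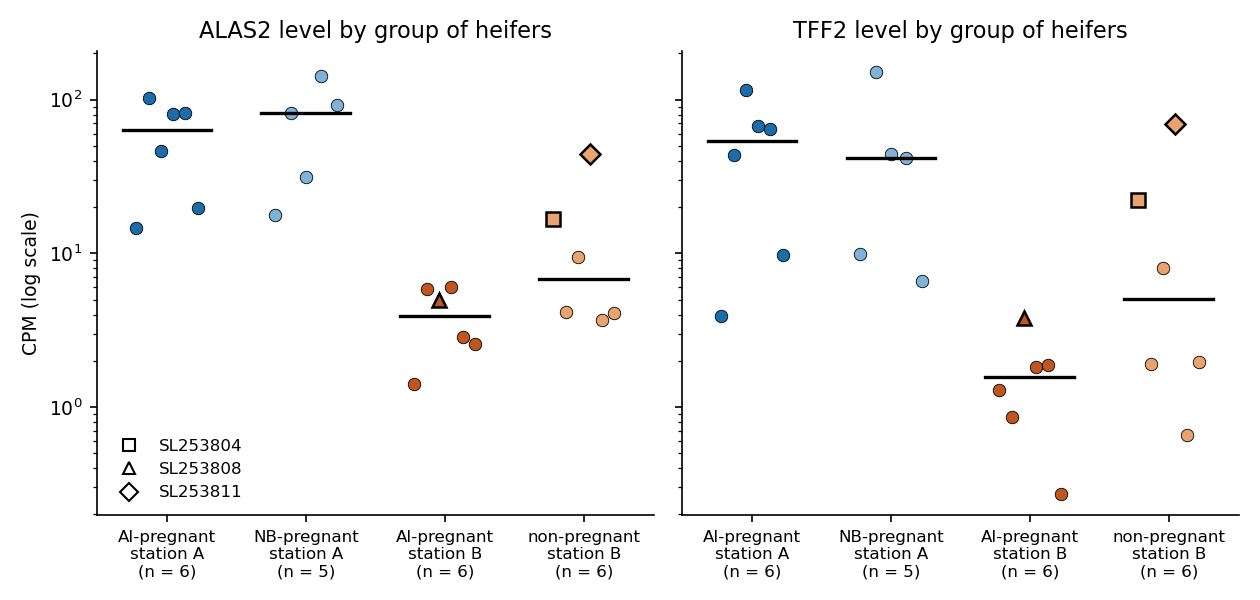
Level of ALAS2 (left) and TFF2 (right) in CPM on a log axis, with 1 point for each heifer, a bar at the median of each group, and separate symbols for SL253804, SL253808 and SL253811. In both genes the groups of station A overlap, AI-pregnant heifers of station B lie below those of station A, and SL253811 and SL253804 are the highest heifers of station B.

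The outcome of breeding was not separated by either gene in station A. For ALAS2, edgeR's quasi-likelihood test over 12128 genes gave a log2 fold change of 0.44 (NB-pregnant over AI-pregnant, SE 0.65, 95% interval -0.98 to 1.86, adjusted p = 0.999). For TFF2 the log2 fold change was -0.08 (SE 0.86, 95% interval -1.95 to 1.80, adjusted p = 0.999 in the same edgeR fit). The exact permutation test of CPM (two-sided, smallest p possible 0.00433) gave p = 0.589 for ALAS2 and p = 0.983 for TFF2. The intervals include a 2-fold change in both directions for TFF2, and upward for ALAS2, so differences of that size were not detectable with 11 heifers. In the background, 0% of genes were called by edgeR in this comparison, though 101 genes had an unadjusted p under 0.05 and DESeq2 called 2, and 0.148% of genes had groups that did not overlap. Within the 5 libraries rich in abundant transcripts, median ALAS2 was 81.4 CPM in AI-pregnant (n = 2) and 91.8 CPM in NB-pregnant heifers (n = 3), and within the other 6 it was 33.2 CPM (n = 4) and 56.7 CPM (n = 2). The order of the medians of TFF2 differed between these classes, with 66.1 CPM in AI-pregnant and 9.84 CPM in NB-pregnant heifers in the first and 26.7 and 97.9 CPM in the second. With the class of library as a covariate, neither gene was called.

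In station B both transcripts were scarce in most heifers. ALAS2 in AI-pregnant heifers was 1.42 CPM in SL253803, 2.57 in SL253812, 2.87 in SL253810, 4.95 in SL253808, 5.89 in SL253807 and 6.06 in SL253809, a mean of 3.96 CPM ± 1.93 (SD, n = 6). Non-pregnant heifers had 3.71 CPM in SL253813, 4.09 in SL253814, 4.14 in SL253805, 9.50 in SL253806, 16.8 in SL253804 and 44.3 in SL253811, a mean of 13.8 CPM ± 15.8 (SD, n = 6). Of the non-pregnant heifers, 3 lay within the range of the AI-pregnant group and 3 above it. SL253811 rested on 906 read pairs, with an interval of 41.5 to 47.3 CPM, and SL253803 on 12, with an interval of 0.732 to 2.48 CPM.

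TFF2 was close to the limit of detection in several heifers of station B. AI-pregnant heifers had 0.271 CPM in SL253812, 0.857 in SL253807, 1.30 in SL253803, 1.82 in SL253809, 1.88 in SL253810 and 3.77 in SL253808, a mean of 1.65 CPM ± 1.2 (SD, n = 6). In SL253812 that was 2 read pairs, with an interval of 0.0328 to 0.978 CPM. Non-pregnant heifers had 0.655 CPM in SL253813, 1.91 in SL253805, 1.97 in SL253814, 8.07 in SL253806, 22.4 in SL253804 and 69.8 in SL253811, a mean of 17.5 CPM ± 26.9 (SD, n = 6). The 3 heifers that were high for ALAS2, in the same order, were high for TFF2, and the other 3 lay among the AI-pregnant heifers.

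These are the values for which the genes were taken. The fitted log2 fold change of non-pregnant over AI-pregnant heifers was 1.87 for ALAS2 and 3.51 for TFF2, and no gene of 10832 had a larger fold change in that direction than TFF2, while 10 were larger than ALAS2. Both contrasts leaned on the libraries that stood apart. Without SL253804, SL253808 and SL253811 the log2 fold change fell to 0.45 for ALAS2 and 1.28 for TFF2. Without SL253811 alone it was 0.91 and 2.06. In the 9 other libraries the median of ALAS2 was 2.87 CPM in AI-pregnant (n = 5) and 4.12 CPM in non-pregnant heifers (n = 4), and that of TFF2 was 1.30 and 1.94 CPM. The groups overlapped for both genes, with or without these libraries, and 0.0277% of genes of station B had non-pregnant and AI-pregnant heifers apart. SL253811 and SL253804 were also the deepest libraries of the station, with 20434401 and 13010572 counts. The part of depth and of the profile of these libraries in the result was not tested.

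Both genes were higher in station A than in station B. AI-pregnant heifers of station B also stood in the contrast that chose the genes, which favoured genes low in them, so the fold changes, p-values and ranks between the stations are not independent of the choice. Among AI-pregnant heifers, the lowest, median and highest levels of ALAS2 at station A were 14.7, 63.8 and 102 CPM, against 1.42, 3.91 and 6.06 CPM at station B. For TFF2 they were 3.94, 54.0 and 116 CPM at station A, against 0.271, 1.56 and 3.77 CPM at station B. No AI-pregnant heifer of station B reached the lowest of station A in either gene, although for TFF2 the gap between SL220764 and SL253808 was small and their counting intervals overlapped (3.02 to 5.05 and 2.58 to 5.32 CPM). Such groups without overlap, higher in station A, were found for 9.33% of genes.

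ALAS2 was 15.1-fold higher in AI-pregnant heifers of station A than of station B (log2 fold change 3.91, SE 0.60, 95% interval 2.61 to 5.22, edgeR quasi-likelihood adjusted p = 0.00289). TFF2 was 31.9-fold higher (log2 fold change 4.99, SE 0.85, 95% interval 3.15 to 6.84, adjusted p = 0.00289 in the same edgeR fit). All 6 heifers of station A were above all 6 of station B, and the exact permutation test of CPM (two-sided) gave 0.00216 for each gene, the smallest p this design allows. A call by itself was common here, since 59.6% of the 12059 genes tested were called and 28.9% were called higher in station A. As a description, 65 genes (0.539%) had a larger fold change toward station A than ALAS2, and 3 genes (0.0249%) had a larger one than TFF2. Over all genes the median log2 fold change was 0.16, and the median of its absolute value was 1.32. Station, herd, handling and sequencing run cannot be told apart. Without SL220771, SL220772 and SL253808 the log2 fold changes were 3.75 for ALAS2 and 5.23 for TFF2, and both were called.

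**Figure D2:**
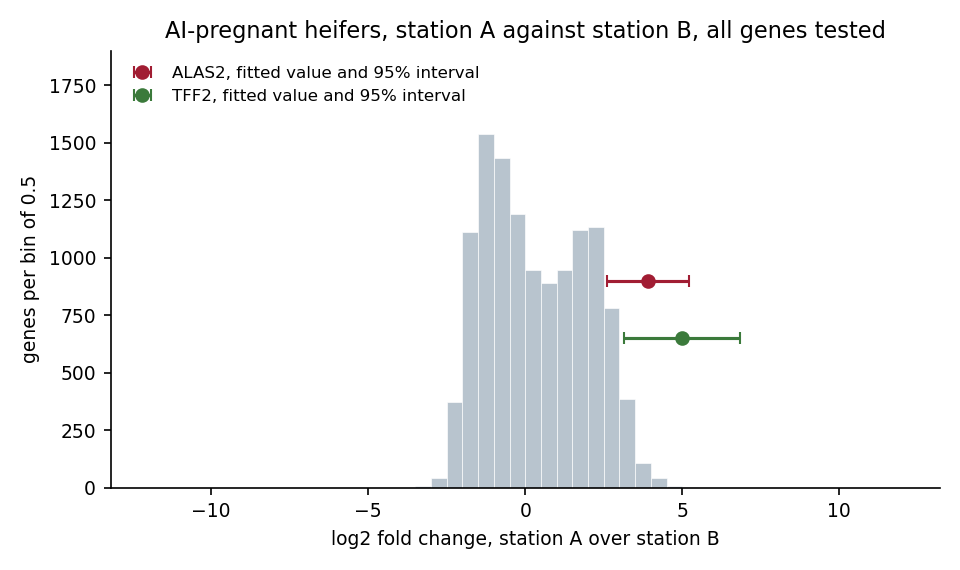
Distribution of the log2 fold change of station A over station B among AI-pregnant heifers for 12059 genes (bars, number of genes per bin of 0.5), with the fitted values of ALAS2 and TFF2 as points and their 95% intervals as horizontal lines (the height of the points has no meaning). Both genes lie in the upper tail, at 3.91 and 4.99.

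Over all heifers, ALAS2 had a median of 80.9 CPM in station A and 4.09 CPM in the 9 libraries of station B, a ratio of 19.8. TFF2 had medians of 43.6 and 1.82 CPM, a ratio of 24.0. Of the 12 heifers of station B, 10 lay below the lowest of station A for ALAS2 and 9 did so for TFF2. The exceptions for ALAS2 were SL253804 and SL253811, joined for TFF2 by SL253806, and all of them were non-pregnant.

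On a scale that allows genes of different length to be compared, TFF2 was often the more abundant. The deposited FPKM values (fragments per kilobase, scaled for depth) correspond to lengths of 1932 bases for ALAS2 and 593 bases for TFF2. In station A the lowest, median and highest FPKM were 7.60, 41.9 and 73.5 for ALAS2 and 6.65, 73.6 and 256 for TFF2. In station B they were 0.735, 2.38 and 23.7 for ALAS2 and 0.457, 3.20 and 122 for TFF2. In 8 of the 11 heifers of station A, and in 8 of the 12 of station B, the FPKM of TFF2 exceeded that of ALAS2. The ratio of their FPKM within a heifer had a median of 1.80 (0.235 to 8.09) at station A, close to the 1.85 (0.343 to 5.13) at station B. In rank, ALAS2 in CPM was above 87.8% of all genes in the median library of station A and above 65.8% in that of station B, and TFF2 above 80.6% and 59.4%. These ranks were taken over all 24616 genes, of which only 9970 to 12456 were over 1 CPM in a library. They are therefore lower among expressed genes.

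The 3 libraries that stood apart in station B resembled station A in many genes, but not equally in these. For each gene, the level in a library was placed on a line from the median of the other 9 libraries of station B (0%) to the median of station A (100%), on the scale of log2(CPM + 0.5). The line was drawn for 2075 genes whose median was at least 8-fold higher in station A. These genes had a median place of 92.6% in SL253804, 97.3% in SL253808 and 108% in SL253811, so most of them were at the level of station A. This is a description, since the genes were picked by the levels it uses.

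On this scale, ALAS2 stood below most of them in all 3 libraries. It stood at 46.2% in SL253804, at 5.97% in SL253808 and at 79.3% in SL253811, where 0.578%, 0.145% and 1.73% of the reference genes had a lower place. The 100% mark of ALAS2, 80.9 CPM, was the median of all 11 libraries of station A. The 3 libraries had 14.6% to 15.6% of counts in the 100 most abundant genes. In the 6 libraries of station A under 20%, median ALAS2 was 39.1 CPM (14.7 to 102 CPM). SL253811, at 44.3 CPM, and SL253804, at 16.8 CPM, lay within that range, and SL253808 lay below it. TFF2 stood at 77.7% in SL253804, at 20.7% in SL253808 and at 116% in SL253811, with 10.6%, 0.145% and 75.9% of reference genes lower. The AI-pregnant heifer SL253808 thus had the profile of station A in most of these genes. Its ALAS2, at 4.95 CPM, lay within the range of the other 9 libraries of station B (1.42 to 9.50 CPM). So did its TFF2, at 3.77 CPM (0.271 to 8.07 CPM). That level of TFF2 was above the median of the 9 libraries, 1.82 CPM, and close to the lowest heifer of station A, SL220764, at 3.94 CPM. In the non-pregnant heifer SL253811 the place of TFF2 was within the upper range of the reference genes and that of ALAS2 below most of them.

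**Figure D3:**
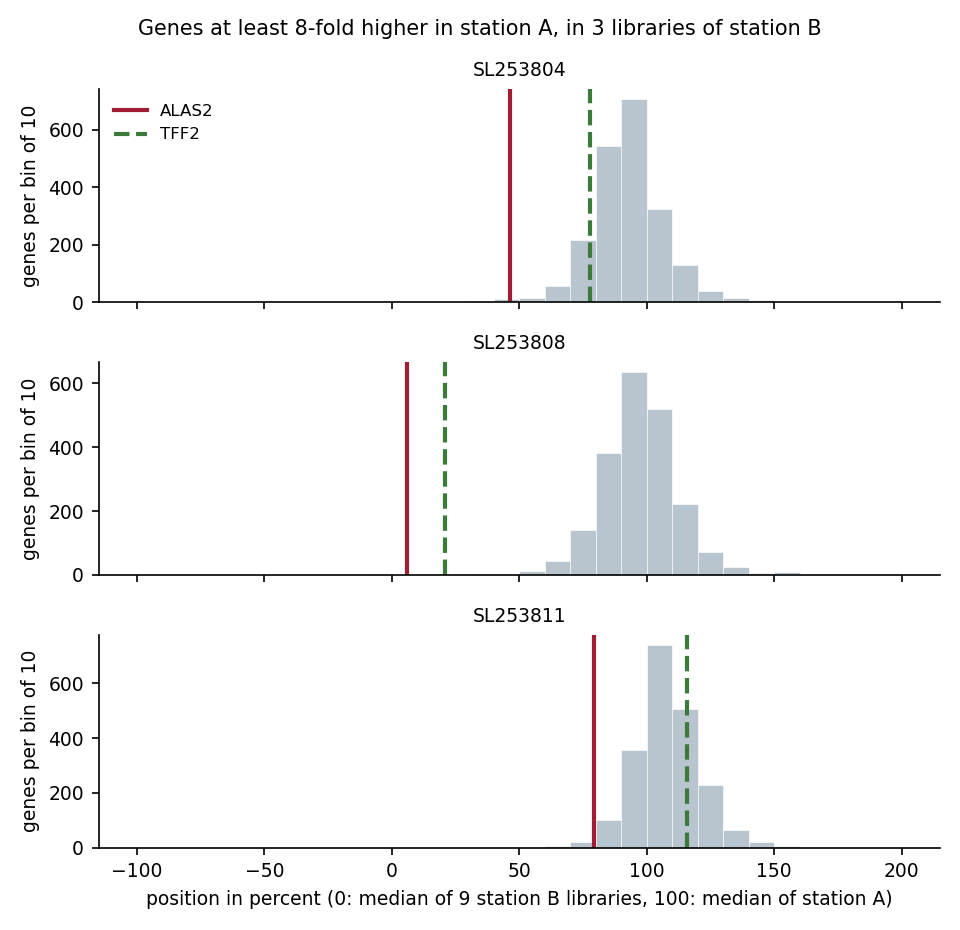
Place of 2075 genes in SL253804, SL253808 and SL253811 on a scale in percent, where 0 is the median of the other 9 libraries of station B and 100 the median of station A (bars, number of genes per bin of 10), with ALAS2 as a solid line and TFF2 as a dashed line. ALAS2 is left of nearly all genes in each library, and TFF2 moves from 20.7% in SL253808 to 116% in SL253811.

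In station A, whose levels did not choose the genes, both varied widely between heifers. The SD of log2 CPM over the 11 libraries of station A was 1.26 for ALAS2, above 95.8% of 12128 genes, and 1.75 for TFF2, above 99.5%, where the median gene had 0.57. Among genes of like level the places were 98.3% and 99.8%. Over the 9 libraries of station B the SD was 0.75 for ALAS2 and 1.10 for TFF2, above 93.2% and 98.9% of 10374 genes. Among genes of like level there, the places were 84.6% and 96.9%. This is a description, since those heifers stood in the contrast that chose the genes and low counts add to the spread there. TFF2 had the larger SD of the pair in both settings, a difference that was not tested.

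Across heifers of station A the genes were low together in part of the animals. SL220764, SL220775 and SL220767 were the 3 lowest for ALAS2 and among the 4 lowest for TFF2, whereas SL220774 was high for ALAS2 (91.8 CPM) and low for TFF2 (6.63 CPM). Pearson's r of log2 CPM was 0.589 (n = 11, permutation p = 0.0573, adjusted 0.102 over 3 relations) and Spearman's rho was 0.373 (permutation p = 0.260, adjusted 0.390). Without SL220764 and SL220775, the heifers farthest from the median of ALAS2, r was 0.152 (n = 9), so the relation rested on those heifers. Within the 6 libraries less rich in abundant transcripts r was 0.820 (exact permutation p = 0.0472) and rho was 0.829 (exact p = 0.0583), not adjusted. That set was chosen after seeing the data, and it holds SL220764 and SL220775. No correlation was computed over the 5 libraries of the other class. There, SL220773 and SL220774 had the highest ALAS2, at 142 and 91.8 CPM. Their TFF2, at 41.6 and 6.63 CPM, was below that of SL220771 and SL220772, at 67.9 and 64.4 CPM. The order of the genes thus differed among these 4 heifers. The remaining heifer of that class, SL220767, was low in both, with 17.9 CPM of ALAS2 and 9.84 CPM of TFF2. In station B, where the genes were chosen for being high together, r was 0.878 over 12 libraries and 0.561 over the 9, with rho of 0.797 and 0.667, given with no test.

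**Figure D4:**
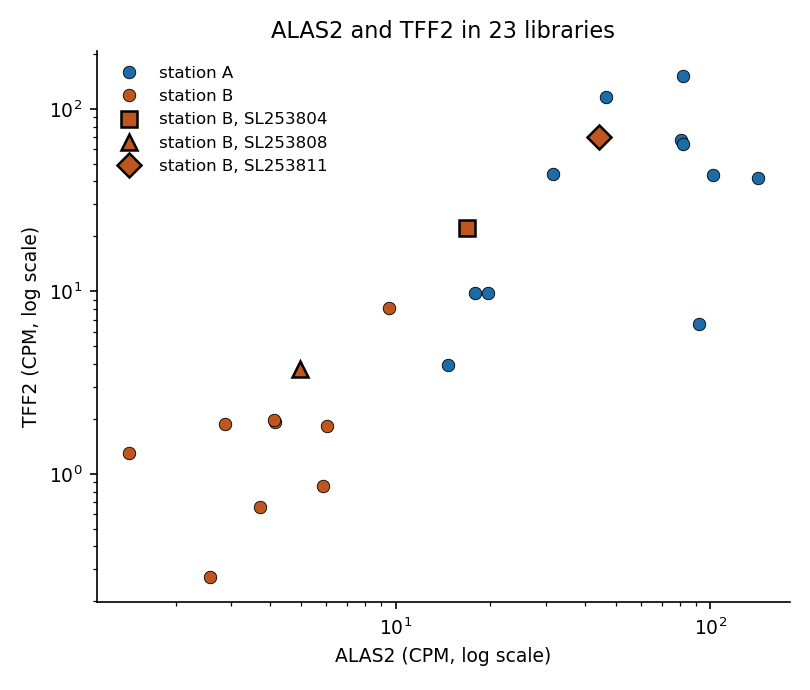
Level of TFF2 against that of ALAS2, both in CPM on log axes, with 1 point for each of the 23 heifers, coloured by station and with separate symbols for SL253804, SL253808 and SL253811. Station B lies low on both axes except SL253804 and SL253811, and in station A the heifer at 91.8 CPM of ALAS2 has 6.63 CPM of TFF2.

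Both genes were also set against the composition of the libraries of station A. The share of counts in the 100 most abundant genes moved with the first principal component, which held 71.3% of the variance of station A (absolute r of 0.970). With that share, ALAS2 had r of 0.571 (n = 11, permutation p = 0.0681, adjusted 0.102) and rho of 0.664 (permutation p = 0.0308, adjusted 0.0923), and without SL220767 and SL220774, which had the highest shares, r was 0.818 (n = 9). TFF2 had r of 0.00647 (permutation p = 0.984) and rho of 0.0182 (permutation p = 0.967), and r of 0.430 without the same heifers. Within the 6 libraries under 20%, r was 0.827 for ALAS2 (exact permutation p = 0.0444) and 0.438 for TFF2 (exact permutation p = 0.388). These p-values were not adjusted, and the set was chosen after seeing the data. No relation passed after adjustment over the family of 3, and whether the relations of ALAS2 and TFF2 differ was not tested.

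**Figure D5:**
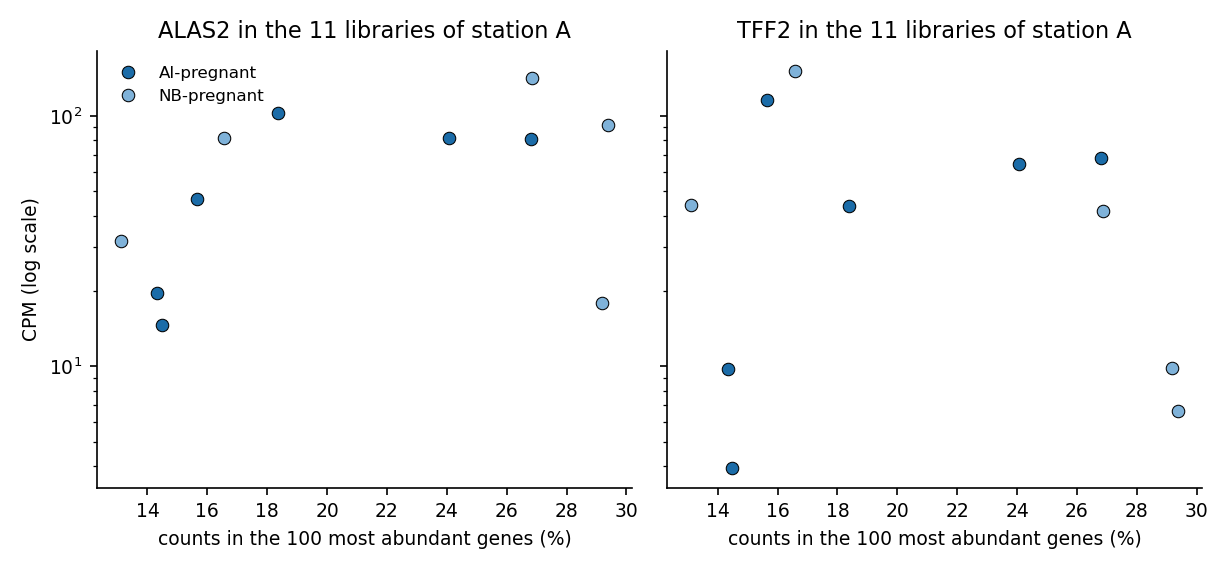
Level of ALAS2 (left) and TFF2 (right) in CPM on a log axis against the share of counts in the 100 most abundant genes in percent, for the 11 heifers of station A coloured by outcome. Under 20% ALAS2 spans 14.7 to 102 CPM, with its highest value at the highest of these shares, SL220767 is low at a high share, and TFF2 shows low and high heifers at both ends.

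Genes with the most similar pattern were sought by the smaller of the Pearson correlations in station A (n = 11) and in the 9 libraries of station B, among 12537 other genes, as a description. For ALAS2 the leading genes were ENSBTAG00000008401 (r of 0.788 over station A and 0.664 over the 9 libraries) and ENSBTAG00000020828 (0.758 and 0.641). ENSBTAG00000008401 varied little, from 94.2 to 149 CPM in station A and from 32.1 to 77.3 CPM over the 9 libraries. ENSBTAG00000020828 had a median of 1.45 CPM in station A and at most 0.179 CPM in the 9 libraries, so its second correlation rested on almost no counts. For TFF2 they were ENSBTAG00000045699 (0.770 and 0.620) and ENSBTAG00000000580 (0.591 and 0.590). ENSBTAG00000000580 was not particular to TFF2, since it ranked 9 for ALAS2 with higher r (0.898 and 0.599). It had 6.35 to 58.3 CPM in station A and 1.35 to 6.45 CPM in the 9 libraries. The gene had 14.3 CPM in SL253804, 16.0 in SL253808 and 37.9 in SL253811. It was also higher in AI-pregnant heifers of station A than of station B (log2 fold change 2.89, edgeR adjusted p = 0.00559), and in SL253808 it lay above all 9 libraries, where TFF2 did not.

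ALAS2 itself ranked 4 among the genes most like TFF2, whereas TFF2 ranked 19 among those most like ALAS2. These ranks were not stable. They were 39 and 228 with Spearman's rho, and 10 and 295 with all 12 libraries of station B in place of the 9. Few genes followed either gene in both stations. A correlation over 0.5 in station A and in the 9 libraries was found with 47 genes for ALAS2 and 12 for TFF2, where the median gene had 675 such partners, and 4.29% and 0.507% of genes had fewer. In station A alone 2366 genes passed 0.5 with ALAS2 and 124 with TFF2, and in the 9 libraries 461 and 648 did. The number shared also depends on these totals, and it was not compared with the overlap they alone would give. The 50 genes most like ALAS2 in station A had a median r with it of 0.0972 in the 9 libraries, where all genes had 0.0270, and the 50 most like TFF2 had -0.0533 against 0.0136. Most genes that passed 0.5 with ALAS2 or TFF2 in station A therefore did not pass it in the 9 libraries, over samples of 11 and 9 heifers that share library composition. In those 9 libraries ALAS2 rested on 12 to 55 read pairs and TFF2 on 2 to 45, which adds counting error to each r. The median of 675 partners was taken over genes of all levels. The part of low counts in these numbers was not tested.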

How the data were processed

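Read pairs had been trimmed, aligned by the authors to UMD3.1, cleared of multi-mapping pairs, pairs with 5 or more mismatches and duplicates, and counted on Ensembl genes with HTSeq. The deposited tables held raw counts per gene for each station and FPKM, which the authors computed with edgeR for the genes they retained. Groups came from the labels. Here CPM was taken over the whole count table, and genes above 1 CPM in at least 6 libraries were tested with edgeR 4.0.16 (R 4.3.3), using TMM factors, the quasi-likelihood test and p-values adjusted after Benjamini-Hochberg across the tested genes (threshold 0.05), where the study used a likelihood ratio test and DESeq2. The latter (version 1.42.0), other filters, no factors and leaving out heifers were alternatives. Correlations used log2 CPM with a prior count of 2, exact permutation under 10 heifers and 100000 resamples otherwise (scipy 1.17.1). Scripts were tested on simulated data. The 2 genes most like each gene were named, by the rule given with them. Lists of heme synthesis, heme and iron transport, trefoil and cell type marker genes were set but not applied, because the table of names used here is not keyed by Ensembl identifiers. Coordinates and sequences were not used here. The genes and lists were chosen with earlier results of these data known.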

Additional observations from a re-analysis of the deposited data

Results flagged for a closer look

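Of the 4 sets of levels tested in station A, each gene in each group, 1 had a heifer far from the others of its group, with a gap to its neighbour above Dixon's 95% critical value on the scale of CPM, where chance gives about 1 in 20 for values without skew. SL220768 was far above the other NB-pregnant heifers for TFF2, at 152 CPM (gap over range 0.741, critical value 0.710), and its ALAS2, at 81.8 CPM, was the median of that group. On the scale of log2 CPM, an alternative chosen after seeing the data, the same ratio was 0.358, and 0 of the 4 sets had such a heifer. Station B was left out, since its levels chose the genes.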

How the results depend on the processing

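Between AI-pregnant heifers of the stations, both genes were called in the same direction under every alternative run, with adjusted p from 2.64e-09 to 0.00837. Each alternative again used AI-pregnant heifers of station B, which had a part in the choice of the genes. These p-values are therefore not independent of that choice. Leaving out each heifer in turn gave log2 fold changes of 3.68 to 4.20 for ALAS2 and 4.74 to 5.46 for TFF2, and 5934 to 9187 genes called, the highest without SL253808. TFF2 could not be fitted where more than 1 CPM was required in every library. Within station A neither gene was called under any alternative (adjusted p at least 0.812 for ALAS2 and 0.890 for TFF2), and directions were not stable. Leaving out each heifer gave -0.0243 (without SL220773) to 0.68 for ALAS2 and -0.93 (without SL220768) to 0.25 (without SL220766) for TFF2, with 0 genes called in each fit. Without normalization factors, which moved the median of all genes to -0.12, TFF2 was at 0.00137, and the cause was not tested. DESeq2 called 2 genes there, ENSBTAG00000035868 (log2 fold change -1.19) and ENSBTAG00000047764 (-3.79), named after their values were seen. In station B, leaving out each heifer gave 0.91 to 2.08 for ALAS2 and 2.06 to 3.97 for TFF2, the lowest without SL253811, and 0.45 and 1.28 were left without SL253804, SL253808 and SL253811. The correlation of ALAS2 and TFF2 in station A ranged from 0.398 (without SL220764) to 0.778 (without SL220774), with permutation p under 0.05 in 2 of 11, and was 0.820 in the 6 libraries under 20%. That set, the class of library as a covariate and the station contrast without 3 libraries were chosen after seeing the data. With Spearman's rho, 1 of the 2 genes named as most like each gene stayed among its 10 leading genes. With all 12 libraries of station B in place of the 9, 2 stayed for ALAS2 and 1 for TFF2. No paired analysis was possible because the labels give no replicate numbers shared between groups. With 5 or 6 heifers a group and as few as 2 read pairs of TFF2 in a library, small differences in station B were beyond this depth.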
